A study of Mus musculus with 6 samples.

Results

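Transcripts of the Rab small GTPases were compared between XY and XX mouse oocytes. The set took every probe set that the platform annotation assigned to a single gene symbol beginning with Rab and a digit, leaving out symbols that contain fip or ip1. This gave 148 probe sets of 66 genes, out of 45037 probe sets and 18193 genes with 1 symbol on the array. Of the 66 genes, 59 encode Rab GTPases and 7 carry the name without being GTPases: the regulators Rab3gap1, Rab3gap2, Rab3il1 and Rab3ip, the endosomal factor Rab5if, and the opposite-strand transcripts Rab10os and Rab26os. The oocytes were fully grown and arrested with an intact germinal vesicle (GV), the large nucleus of meiotic prophase. They came from XY females of B6.Y(TIR), in which a Y chromosome of TIR origin on a B6 background leaves XY animals with ovaries, and from their XX littermates, so that both groups share the strain. Females of both groups were 25 to 29 days old, had been given 5 IU of equine chorionic gonadotropin 45 to 47 hours earlier, and gave 10 oocytes per sample freed of cumulus cells by pipetting. There were 3 arrays per group.

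Rab proteins are molecular switches that cycle between a GTP-bound form, which recruits effectors to a membrane, and a GDP-bound form that is carried back to the cytosol. Exchange factors load GTP, GTPase-activating proteins return the protein to its GDP form, and each Rab marks a particular compartment, from the endoplasmic reticulum and Golgi to endosomes, lysosomes and secretory vesicles. In the fully grown mouse oocyte, which has largely stopped transcribing and lives on stored mRNA, Rab11a vesicles carry actin nucleators used in moving the spindle, and Rab3a and Rab27a are known from the secretion of cortical granules.

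The arrays correlated at 0.967 to 0.983 within a group and at 0.940 to 0.962 between groups. The Y-linked gene Uba1y read 4.62, 5.18 and 3.93 in XX 1 to XX 3 against 12.11, 12.19 and 12.19 in XY 1 to XY 3, as log2(normalized intensity + 9), the scale of every level below. Each of the 16 oocyte markers listed passed the filter on low values, with Ddx4 higher (log2 change 1.01) and Bmp15 (-1.34) and Mos (-0.86) lower in XY, and a summed normalized intensity of 110517 to 123117 in XX and 102906 to 107437 in XY. Of 13 markers of granulosa and cumulus cells on the array, 9 passed it. The sum over all 13 was 1409 to 1670 in XX and 1610 to 1810 in XY. Inha was higher in XY (log2 change 1.58), and Kitl had a change of -0.63 that did not pass (adjusted p = 0.0715, limma). Of 6 blood cell markers 3 passed the filter. The sum over all 6 was 162 to 229 in XX and 359 to 403 in XY, and Csf1r (1.40) and Cd68 (0.59) were higher in XY. Actb control probe sets at the 3' and 5' ends of the transcript report RNA integrity and the length of the labelled copies. Their log2 ratio, 3' over 5', was 3.87 in XX 2 and 3.996 in XX 3. It was 5.53 in XX 1, among the XY arrays at 5.20 to 5.90. The part of the other cells' markers in the results below was not tested. The Actb ratio was fitted as a covariate, and its effect is given with the stability of the calls.

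Few Rab genes differed between XY and XX oocytes, and the share that did was not above that of all genes. Of the 56 genes that passed the filter and were tested, 5 passed an adjusted p of 0.05 (limma, adjusted over 12442 genes), which is 8.93%, against 13.2% of all genes tested. Rab40b was higher in XY, where 7.86% of all genes were higher. Rab33b, Rab1b, the X-linked Rab39b and Rab3il1 were lower, 7.14% of the members, against 5.34% of all genes. Among the 50 GTPases tested, 4 passed (8%). The typical size of a change was the same as elsewhere: the median absolute log2 change was 0.34 for the members and 0.34 for all genes, and the medians with sign were -0.02 and 0.07. By unadjusted p under 0.05, 17 members passed (30.4%) against 32.2% of all genes. A change of 2-fold or more was seen in 5 members (8.93%) and in 8.72% of all genes, and 20 members (35.7%) lay within 0.2 of no change, against 31.1% of all genes. The XX and XY values of 19 members did not overlap, 6 higher and 13 lower in XY, which is 33.9% against 38.8% of all genes. Of the 56 members, 48 met the filter on all 6 arrays, 1 met it only through its XY arrays and none only through its XX arrays.

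**Figure D1:**
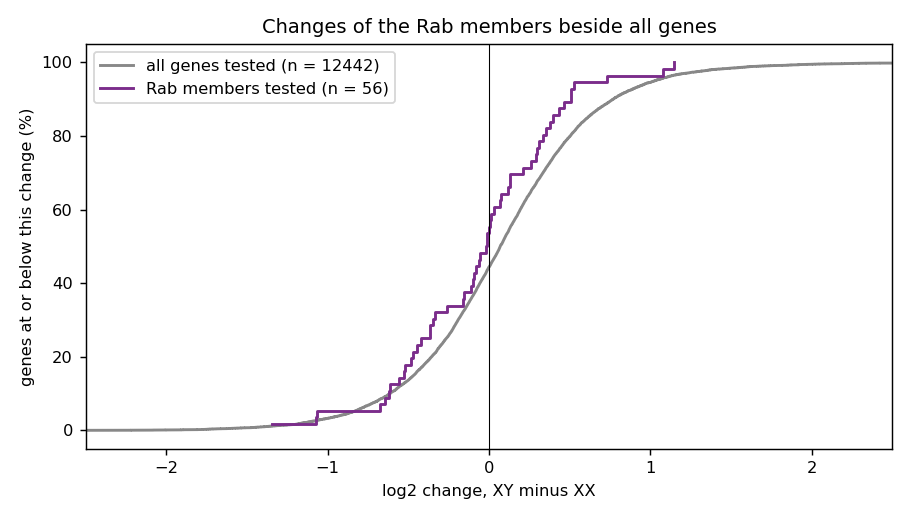
Cumulative share of genes (y axis, percent) at or below each log2 change of XY minus XX (x axis), for the 56 Rab members tested (purple) and all 12442 genes tested (grey). The purple line lies to the left of the grey one over most of the range, with a median of -0.02 against 0.07, and its lowest value is -1.34 and its highest 1.15.

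Of the 66 genes, 10 had no probe set above the filter and were not tested: Rab19, Rab20, Rab25, Rab26, Rab26os, Rab30, Rab33a, Rab39, Rab42 and Rab44. Their probe sets reached the array median on fewer than 3 of 6 arrays.

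The smallest p of a GTPase was that of Rab33b, a Golgi Rab that also binds the autophagy factor Atg16l1 (chr3:51483966-51496228, GRCm38.p6). Its level was 9.46, 9.48 and 9.26 in XX 1 to XX 3 and 8.08, 8.35 and 8.56 in XY 1 to XY 3. All XY arrays lay below all XX arrays. The log2 change was -1.07 ± 0.18 (SE, n = 3 and 3; limma adjusted p = 0.0131), 2.10-fold lower in XY. As deposited, its intensity was 741 ± 147 (SD, n = 3) in XX and 278 ± 29.2 in XY.

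Rab1b, which with Rab1a carries traffic from the endoplasmic reticulum to the Golgi (chr19:5099207-5106996), was lower in XY. It read 8.19, 8.34 and 8.37 in XX and 7.78, 7.61 and 7.67 in XY. The replicates lay close together in both groups and did not overlap. Its log2 change was -0.61 ± 0.14 (adjusted p = 0.0337), 1.53-fold lower, with deposited intensities of 342 ± 105 and 183 ± 38.0 (SD, n = 3).

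Rab39b, an X-linked Golgi Rab (chrX:75572045-75578231), was lower in XY and dim. Its level was 6.57, 6.23 and 6.21 in XX and 5.68, 5.62 and 5.83 in XY, with XX 1 the highest and no overlap. The change was -0.62 ± 0.16 (adjusted p = 0.0493), on a deposited intensity of 70.7 ± 1.48 against 45.2 ± 3.12 (SD, n = 3). The other X-linked members tested were late endosomal: Rab9b read 5.34, 5.44 and 5.605 in XX and 4.53, 4.64 and 5.28 in XY, and Rab9 read 10.08, 9.55 and 9.40 against 9.05, 9.31 and 9.59. Their changes of -0.65 ± 0.22 and -0.36 ± 0.23 did not pass the test (adjusted p = 0.0966 and 0.317), and the Rab9 groups overlapped. All 3 X-linked members tested thus had a value below 0. Over the array, 247 of 375 X-linked genes tested did so (65.9%), with a median of -0.28, and 95 (25.3%) were called lower.

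Rab3il1, which is not a GTPase but an exchange factor of the Rabin family acting on Rab3a and Rab8 (chr19:10001669-10038380), had the largest fall among the members. It read 9.70, 9.56 and 10.25 in XX and 8.72, 8.33 and 8.43 in XY, without overlap. The log2 change was -1.34 ± 0.22 (adjusted p = 0.0133), 2.54-fold lower. Its second probe set above the filter fell too, by 0.85 (adjusted p = 0.0399 in the fit over every probe set). The related Rab3ip, which encodes Rabin8, had a change of -0.16 (adjusted p = 0.659).

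Rab40b, an unusual Rab with a SOCS box that joins a ubiquitin ligase (chr11:121356121-121388251), was the member higher in XY. It read 5.61, 5.46 and 4.91 in XX and 6.54, 5.92 and 6.96 in XY. The lowest XY array lay just above the highest XX array. The change was 1.15 ± 0.30 (adjusted p = 0.0495), on deposited intensities of 29.7 ± 7.91 and 82.9 ± 28.4 (SD, n = 3). The XX mean lay within the range of the array medians, 24.5 to 31.4. Fold changes on this scale understate the change of genes as dim as Rab40b and Rab39b. The paralog Rab40c had a change of 0.43 (adjusted p = 0.206).

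**Figure D2:**
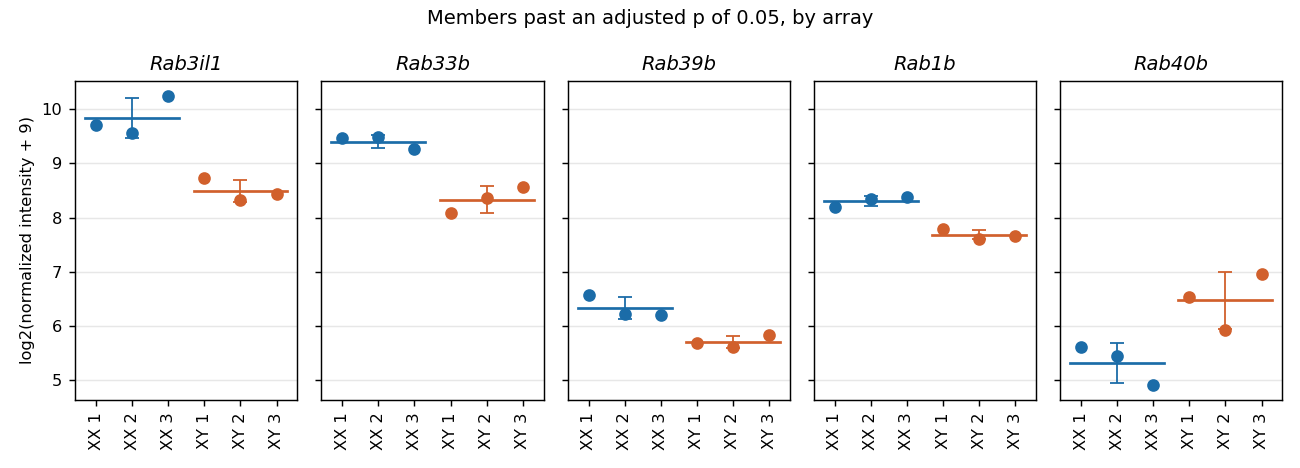
Level on each array as log2(normalized intensity + 9) (y axis) of the 5 members past an adjusted p of 0.05, with XX arrays in blue and XY arrays in orange. Horizontal lines are group means and error bars 1 SD (n = 3), and in each panel the XX and XY points do not overlap.

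Rab genes are found in most cell types, and their promoters were set beside those of all genes. The 250 bases before the annotated start were taken from RefSeq (GRCm38.p6), in which 55 of the 66 genes have a window, 71 windows in all. The GC box (GGGCGG, either strand) was in 67.6% of the members' windows and in 32.7% of 32851 windows of all genes. The E-box CACGTG was in 12.7% against 6.02%, the CCAAT box in 38.0% against 33.8% and TATAAA in 7.04% against 12.4%, and the median GC content was 60.4% against 52.4%. The windows include alternative starts of 1 gene, and matches are to letters only. The windows of the 2 lower autosomal GTPases and of the higher one are shown because these genes moved in opposite directions. They are written 5' to 3' along the gene, with GC boxes and CCAAT boxes of either strand in capitals.
Rab33b, chr3:51483716-51483965, plus strand: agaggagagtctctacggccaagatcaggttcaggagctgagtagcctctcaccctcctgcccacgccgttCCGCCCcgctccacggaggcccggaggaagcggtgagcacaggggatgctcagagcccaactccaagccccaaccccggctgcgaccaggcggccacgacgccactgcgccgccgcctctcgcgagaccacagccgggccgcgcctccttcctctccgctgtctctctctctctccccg
Rab1b, chr19:5106997-5107246, minus strand: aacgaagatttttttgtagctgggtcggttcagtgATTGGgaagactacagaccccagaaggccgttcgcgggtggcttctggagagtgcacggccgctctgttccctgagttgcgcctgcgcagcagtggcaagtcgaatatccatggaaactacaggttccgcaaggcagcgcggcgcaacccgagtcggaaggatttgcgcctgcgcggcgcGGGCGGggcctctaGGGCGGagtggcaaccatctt
Rab40b, chr11:121388252-121388501, minus strand: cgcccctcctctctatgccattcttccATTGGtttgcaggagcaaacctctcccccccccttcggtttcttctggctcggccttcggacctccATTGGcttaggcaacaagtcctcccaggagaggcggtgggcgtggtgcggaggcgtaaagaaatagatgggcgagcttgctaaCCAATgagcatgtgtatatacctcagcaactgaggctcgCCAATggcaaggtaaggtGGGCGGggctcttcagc

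The Rab33b window held 1 GC box and no CCAAT box, and that of Rab1b held 2 GC boxes and 1 CCAAT box. The Rab40b window held 4 CCAAT boxes and 1 GC box. GC boxes were thus in the windows of genes that moved either way. The window of Rab39b differed from these in base composition, with 31.6% GC and no GC box against 69.2% GC for Rab33b.

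By role, 3 of 10 tested genes of the endoplasmic reticulum and Golgi (of 14) were lower, beside 5.34% of all genes, and 0 were higher. They are Rab33b, Rab1b and Rab39b, of which the latter pair passed under fewer than 9 of the alternatives run. The other calls were Rab40b, placed under cilium and other, and Rab3il1, which is not a GTPase. The remaining genes of this group did not pass the test. Rab1a read 11.60, 11.67 and 11.08 in XX and 11.85, 12.02 and 12.01 in XY, with a change of 0.51 ± 0.19 (adjusted p = 0.121). Rab18, known from lipid droplets and the endoplasmic reticulum, had a change of 0.51 (adjusted p = 0.0688) with no overlap. Its second, dimmer kept set, 1420899_at, gave -0.46 with overlap. By the probe sets that stood for them, Rab2a (-0.26), Rab6a (0.00), Rab43 (0.29), Rab2b (0.39) and Rab6b (0.73) had overlapping groups. Rab6b was the most variable, with XY values of 6.93, 9.08 and 8.61. Sets 1449676_at of Rab2a (-1.28), 1436923_at of Rab2b (-0.55) and 1460617_s_at of Rab6b (0.59) did not overlap. None of these sets passed the test, and all other kept sets of these genes overlapped. The group's median change was 0.15, with its members spread on both sides of 0.

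None of the 10 tested genes of endocytosis and the early endosome (of 11) passed the test by the probe set that stood for it. Their median change was 0.01. Rab5a, which drives fusion of early endosomes, had the smallest p, with 8.34, 8.23 and 8.32 in XX and 7.80, 7.67 and 8.01 in XY. This is a change of -0.47 ± 0.15 (adjusted p = 0.0802) with no overlap between the groups. Its paralogs Rab5b and Rab5c gave -0.15 and 0.13. By the probe sets that stood for them, Rab21, Rab4a, Rab22a, Rab4b, Rab17 and Rab31 all lay within 0.2 of no change. Rab34 lay at 0.35. The second kept set of Rab21, 1437742_at, gave -0.86 and passed in the limma fit over every probe set, as described below. Sets 1418341_at of Rab4a (-0.44, no overlap) and 1431691_a_at of Rab31 (0.53, with overlap) did not pass.

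Of the recycling endosome group, 5 of 6 genes were tested and none passed (median 0.07). Rab35, a Rab of fast recycling to the plasma membrane, had the smallest p: 9.65, 9.33 and 10.02 in XX and 8.90, 9.22 and 8.86 in XY. Its change was -0.68 ± 0.22 (adjusted p = 0.0783), and the groups did not overlap. Rab14, which links the Golgi with endosomes, read 13.27, 13.44 and 13.48 against 13.44, 13.38 and 13.42. By the probe set that stood for it, its change of 0.01 has a 95% interval of -0.32 to 0.34. Its other kept sets ran from -0.51 (1419244_a_at, no overlap) to 0.27 (1419245_at, with overlap). None of them passed, with an adjusted p of 0.0807 for 1419244_a_at in the limma fit over every probe set. Rab11a, the main Rab of recycling endosomes, gave 0.21 (interval -0.18 to 0.60) by the probe set that stood for it, Rab11b 0.53 (adjusted p = 0.167) and Rab15 0.07.

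All 10 genes of the late endosome and lysosome were tested and none passed (median -0.34). The smallest p was that of the X-linked Rab9b. Rab7, the central Rab of late endosomes, read 12.58, 12.58 and 12.53 in XX and 12.68, 12.67 and 12.57 in XY, a change of 0.08 with an interval of -0.24 to 0.39. Rab38, known from lysosome-related organelles, read 13.48 in XX 1, 12.90 and 12.88 in XX 2 and XX 3, and 13.38 to 13.42 in XY. In this probe set, 1439628_x_at, XX 1 stood with the XY arrays, and the change was 0.31 (adjusted p = 0.315). The second kept set of Rab38, 1417700_at, went the other way, by -0.26 with no overlap. It did not pass either (adjusted p = 0.332 in the fit over every probe set). Rab32, a relative of Rab38, gave -0.48 (adjusted p = 0.130) with no overlap. Rab12 (-0.42), Rab7b (-0.35), Rab24 (-0.34), Rab29 (-0.11) and Rab36 (-0.10) had overlapping groups, and Rab7b had the widest interval of them, -1.48 to 0.78.

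In the group of secretion and the cell surface, 11 of 12 genes were tested and none passed (median -0.06). Rab8a, which acts in delivery from the Golgi to the plasma membrane, came nearest, with 9.74, 9.65 and 9.47 in XX and 9.13, 9.14 and 9.02 in XY. The change was -0.52 ± 0.15 (adjusted p = 0.0584), and all XY arrays lay below all XX arrays. Its second kept probe set, 1440620_at, gave 0.31 and did not pass, and the mean of both gave -0.11. Of the genes tied to cortical granules, Rab27a read 10.07, 9.97 and 10.11 against 9.80, 9.65 and 9.61, a change of -0.37 (adjusted p = 0.125). Rab3a gave 0.26 (adjusted p = 0.451), where its second kept probe set, 1422589_at, gave -0.27. Rab3d, by the probe set that stood for it, gave -0.53 (adjusted p = 0.0718). Rab3c, at 5.07, 3.598 and 5.07 in XX and 5.87, 5.68 and 5.43 in XY, was the member that met the filter only through its XY arrays. Its change was 1.08 (adjusted p = 0.112), with a deposited intensity of 2.87 in XX 2. Rab8b (0.38) and Rab27b (0.29) did not pass either. Rab10, Rab13, Rab37 and Rab3b lay within 0.2 of no change by the probe sets that stood for them. Of the other kept sets of Rab10, 1429296_at gave -0.47 with no overlap and 1422664_at gave 0.00. Neither of these sets passed the test.

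Besides Rab40b and Rab40c, the last GTPase group held Rab28 (0.46) and Rab23 (-0.01), neither past the test. Among the genes that are not GTPases, the subunits of the Rab3 GTPase-activating complex, which also acts on Rab18, gave -0.56 for Rab3gap1 (adjusted p = 0.110) and -0.45 for Rab3gap2 (adjusted p = 0.201). Rab3gap1 read 11.10, 11.73 and 11.68 in XX and 10.93, 10.84 and 11.06 in XY, with XX 1 nearest to XY. Rab10os, at 7.68, 6.86 and 6.44 against 5.71, 6.14 and 5.93, had a change of -1.07 (adjusted p = 0.0643), and Rab5if, with 12.61, 12.22 and 12.44 against 12.83, 12.68 and 12.76, one of 0.33 (adjusted p = 0.188).

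**Figure D3:**
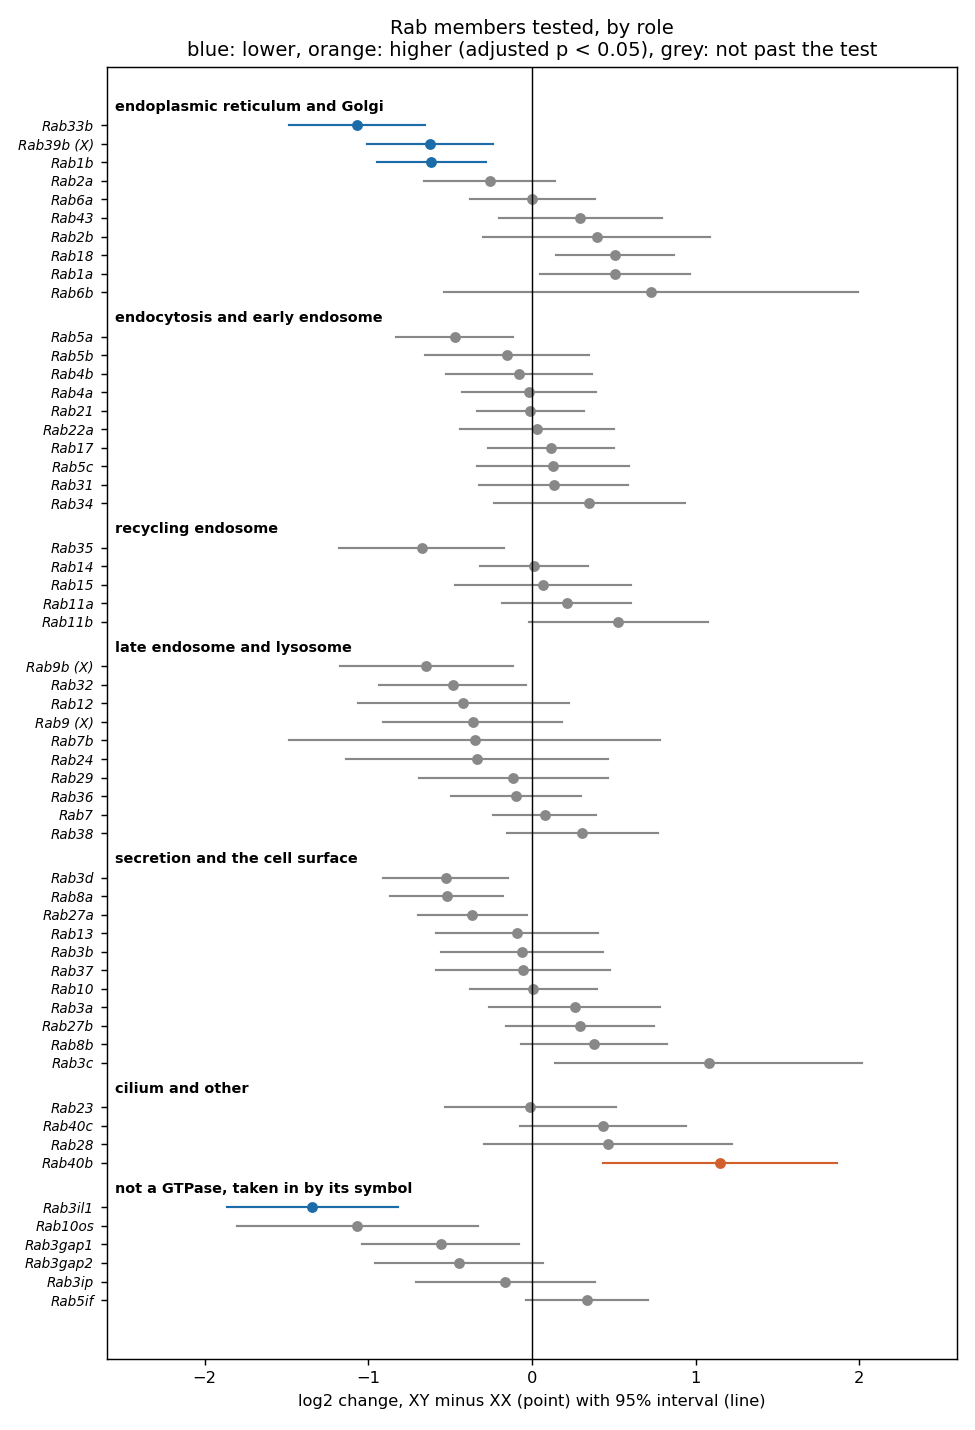
Log2 change of XY minus XX (x axis; point) with its 95% interval (line) for the 56 members tested, grouped by role (y axis), with (X) for X-linked genes. Blue points are lower and orange points higher in XY at an adjusted p of 0.05, and the 3 blue GTPases all stand in the endoplasmic reticulum and Golgi group.

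Close paralogs were then compared within each array, as the log2 ratio of their signals, a measure that was chosen after the values were seen. Of 19 pairs that share a number, the ratio did not overlap between XX and XY in 7 (36.8%). The levels of 38.8% of all genes did not overlap, but that is a share of single genes. No such share was computed for ratios of other gene pairs, and several of the 19 pairs share a gene. With 3 arrays against 3 an exact two-sided permutation test cannot give a p below 0.1. That was the p of each of these 7 pairs, and 0.271 after adjustment over the 19. The ratio of Rab1a to Rab1b was 3.41, 3.33 and 2.71 in XX and 4.07, 4.41 and 4.34 in XY, a difference of 1.12. That of Rab8a to Rab8b was -1.06, -1.46 and -0.99 in XX and -2.07, -2.03 and -2.11 in XY, a difference of -0.90, which holds for the probe set of Rab8a that stood for it. For Rab5a over Rab5c the values were 1.21, 0.58 and 1.12 against 0.40, 0.37 and 0.34 (difference -0.60), with the XY arrays within a narrow range. Rab3a over Rab3d (0.79) and Rab27a over Rab27b (-0.66) were further such pairs, and they too hold only for the probe sets that stood for these genes. The second kept set of Rab3a gave -0.27, and the sets of Rab3d did not move alike. The set of Rab27b was dim and reached the array median on 1 XX array. The other 2 rest on Rab3c, which met the filter only in XY, so no size is drawn from them, and 5 of 16 pairs without Rab3c did not overlap. These differences describe a change of one probe set against another and do not give the relative amounts of the paralogs.

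**Figure D4:**
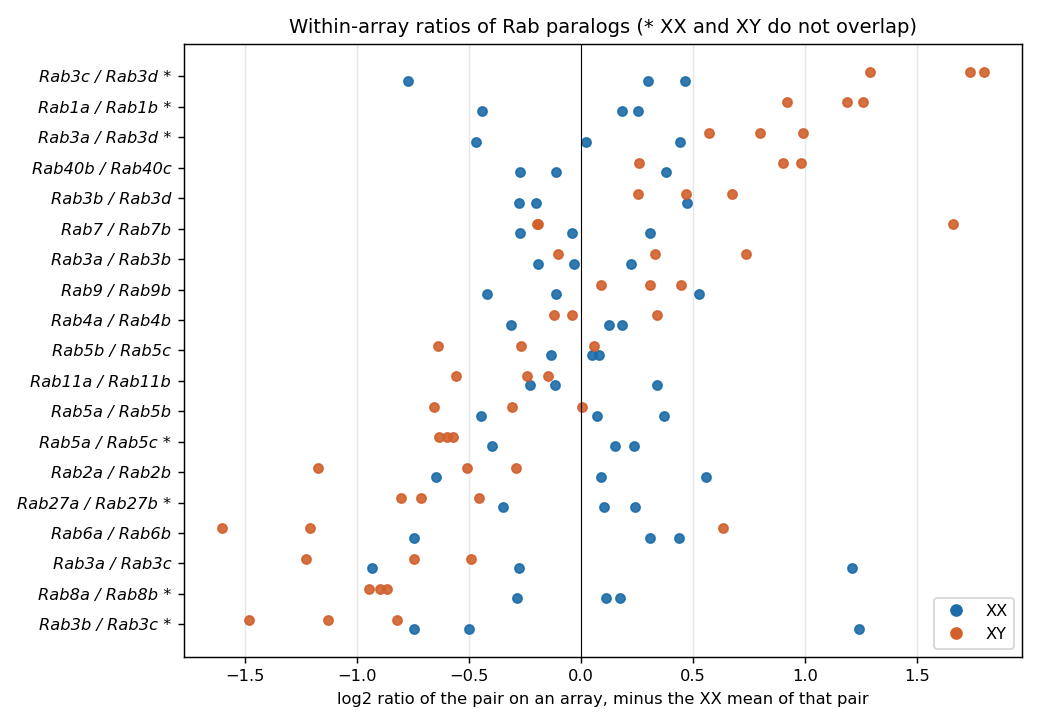
Log2 ratio of 2 paralogs on each array, less the mean of the 3 XX arrays for that pair (x axis), for 19 pairs (y axis), with XX in blue and XY in orange. An asterisk marks the 7 pairs in which the XX and XY points do not overlap, among them Rab1a over Rab1b with a difference of 1.12 and Rab8a over Rab8b with -0.90.

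Several Rab genes were read by more than 1 probe set, and these did not always move alike. With every kept probe set as a feature, 8 of 93 member probe sets passed (8.60%), 1 higher and 7 lower, against 11.5% of 20268 probe sets. Of 24 members with several kept probe sets, the sets had the same sign in 10 (41.7%), against 55.1% of 4937 genes, and the median spread between sets of a gene was 0.49 against 0.50. Rab3d was the only member whose probe sets were called in opposite directions (1 of 24). Such opposite calls were made in 10 of the 4937 genes (0.203%).

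Rab3d encodes a Rab of regulated secretion with 4 probe sets. Set 1449260_at read 5.95, 5.09 and 5.67 in XX and 6.94, 7.15 and 7.11 in XY, a change of 1.499 ± 0.24 (adjusted p = 0.0142). Set 1449259_at read 9.80, 9.99 and 9.84 against 9.29, 9.27 and 9.20, a change of -0.62 ± 0.15 (adjusted p = 0.0401). Both separated the groups, one upwards and one downwards, while 1418890_a_at and 1418891_a_at gave -0.53 and -0.22 without passing the test. Under other settings 1449260_at passed in 13 of 17 alternatives, but 1449259_at in only 8 of 17.

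Rab11a and Rab21 each had 1 probe set that fell and 1 that did not pass. For Rab11a, set 1434549_at read 10.68, 10.47 and 10.84 in XX and 10.02, 9.59 and 9.19 in XY, a change of -1.06 ± 0.24 (adjusted p = 0.0343), where 1449256_a_at gave 0.21. For Rab21, an early endosomal Rab that binds integrins, set 1437742_at read 7.77, 7.998 and 7.55 against 6.95, 6.95 and 6.84. That is a change of -0.86 ± 0.17 (adjusted p = 0.0243), where 1437741_at gave -0.01. Set 1434549_at passed under 10 of 17 alternatives and 1437742_at under 8 of 17.

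In each member with a called set and several kept sets, the set of highest change was divided by that of lowest change. A rise of this ratio in XY was thus fixed by the choice of sets. Its log2 value on an array moved by 2.12 for Rab3d (2 of 4 sets), 1.27 for Rab11a and 0.85 for Rab21. For Rab3il1, whose 2 sets both fell, it moved by 0.49. In each the XX and XY ratios did not overlap. The exact two-sided permutation p was 0.1 for each, the smallest that 3 arrays against 3 allow. It is no support, as these genes and sets were chosen after their values were seen. On the deposited intensities the same ratios moved by 2.68, 1.30, 0.65 and 0.53. The part of each transcript that a probe set reads was not analysed here.

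**Figure D5:**
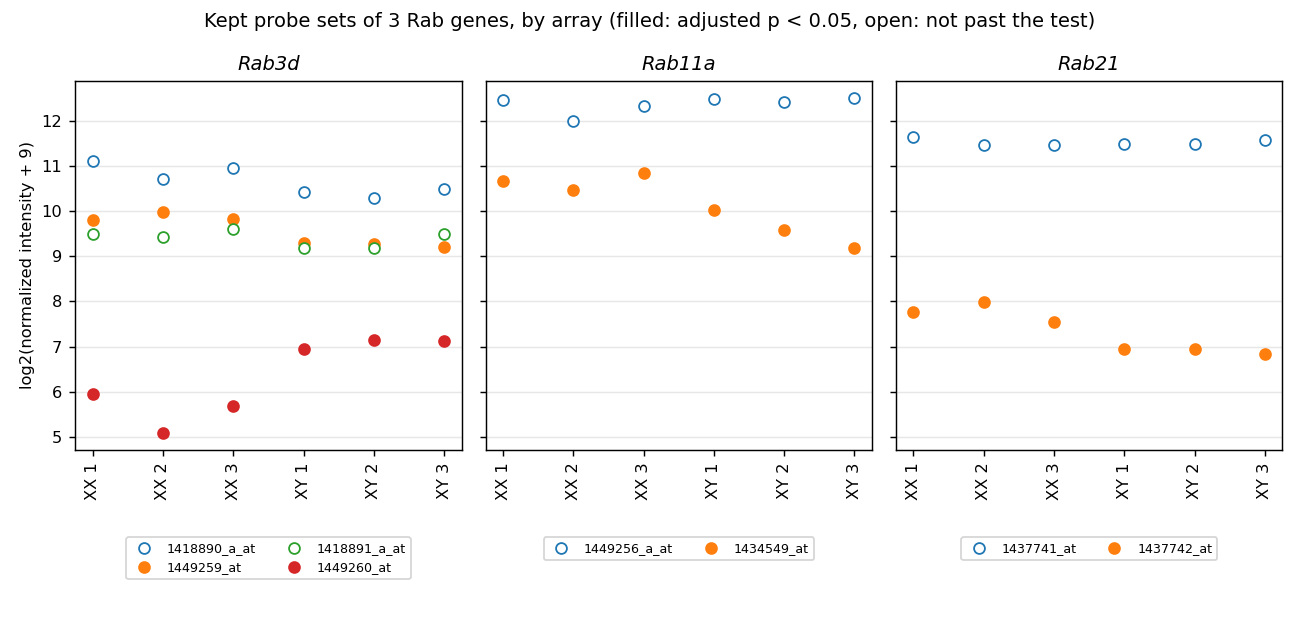
Level on each array as log2(normalized intensity + 9) (y axis) for the kept probe sets of Rab3d, Rab11a and Rab21, 1 colour per probe set. Filled points mark probe sets past an adjusted p of 0.05. In Rab3d set 1449260_at is higher and set 1449259_at lower in XY, and in Rab11a and Rab21 only sets 1434549_at and 1437742_at are filled.

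The genes that regulate Rabs or act for them were called about as often as all genes: of 118 tested genes of 4 lists (144 listed), 4 were higher and 11 lower, 12.7% against 13.2%. Of 40 exchange factors tested 1 was higher (2.5%, against 7.86% of all genes) and 4 lower (10%, against 5.34%). Denn2b, a DENN-domain exchange factor listed as St5 in the platform annotation, read 6.71, 6.60 and 6.72 in XX and 8.56, 8.73 and 8.15 in XY, a change of 1.80 ± 0.18 (adjusted p = 0.00413). Dennd6a, an exchange factor for Rab14, read 8.05, 8.91 and 8.40 against 6.23, 6.39 and 6.50, a change of -2.08 ± 0.24 (adjusted p = 0.00502). In both genes the groups lay over 1 log2 unit apart, but the fall of Dennd6a was -1.16 as a mean of its probe sets. The others lower were Ric1 (-1.38), part of the exchange factor for Rab6, Mon1b (-0.92), of the one for Rab7, and Dennd4c (-0.80), which acts on Rab10. By the probe sets that stood for them, their Rabs, Rab14, Rab6a, Rab7 and Rab10, had changes of 0.01, 0.00, 0.08 and 0.01. Other kept sets of Rab14 and Rab10 differed from these values, as given above.

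Of 29 GTPase-activating proteins 2 were lower (6.90%, against 5.34% of all genes) and 0 higher. The X-linked Tbc1d25, which acts on Rab33b, read 8.19, 8.17 and 8.30 in XX and 7.46, 7.43 and 7.53 in XY, a change of -0.75 ± 0.14 (adjusted p = 0.0171), in the same direction as Rab33b. Usp6nl, which acts on Rab5, gave -1.01 (adjusted p = 0.0221). Tbc1d2b (-0.52), Evi5l (0.57) and Tbc1d22a (0.89) had the next smallest p and did not pass.

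Of 42 effectors and motor adaptors 3 were higher (7.14%, against 7.86% of all genes) and 4 lower (9.52%, against 5.34%). Rilpl1, which binds Rab8 and Rab10 (1.44), Rilp, an effector of Rab7 (0.95), and the exocyst subunit Exoc6 (1.11) rose. The Rab5 effector Appl1 (-1.33), Micall2, an effector of Rab13 and Rab8 (-1.20), Rph3al (-0.80) and the X-linked Sytl4 (-0.64), both effectors of secretory Rabs, fell. Appl1 gave 0.08 when its probe sets were averaged, so its fall rests on the probe set that stood for it. Among 7 genes for prenylation and escort 1 was lower (14.3%, against 5.34% of all genes) and 0 higher. It was Rabac1, the prenylated Rab acceptor, which fell by 1.37 on the log2 scale (adjusted p = 0.0232). Among the called regulators, Denn2b and Dennd6a passed under 18 of 18 alternatives, Rilpl1 under 17, Ric1 under 16, Rilp under 15, Appl1 under 13, and Mon1b, Micall2 and Usp6nl under 12. Tbc1d25 passed under 10 of 18, Rabac1 under 10 of 17, and Exoc6, at 0.64 as a mean of probe sets, and Dennd4c under 9 of 18. The escort genes Chm (-0.53; X-linked) and Chml (-0.65), Rabif (0.25) and the prenyltransferase subunit Rabggta (-0.29) did not pass.

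The calls differed in how they held under other settings. Rab33b passed under 16 of 18 alternatives and Rab3il1 under 15 of 18, whereas Rab1b passed under 8 of 18, Rab40b under 9 of 17 and Rab39b under 4 of 17. The directions of these 5 genes were kept under all alternatives run. With the Actb ratio as a covariate, no member and 1.90% of all genes passed. The changes of Rab33b and Rab3il1 were then -1.07 and -1.32, that of Rab39b -0.85, and that of Rab40b 0.77.

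Leaving out XX 1 raised the number of members called from 5 to 12 (21.4%), 6 higher and 6 lower, against 26% of all genes. Rab11b, Rab27b, Rab28, Rab38 and Rab40c were then higher, and Rab3gap1 and Rab3gap2 lower, besides the 5 named above. Leaving out XX 2, XX 3 or XY 1 left 2 members, Rab33b and Rab3il1 each time, where 4.99%, 5.02% and 4.79% of all genes passed. Without XY 2 Rab40b alone passed (3.91% of all genes), and without XY 3 Rab33b alone (4.54%).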

How the data were processed

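RNA of 10 GV oocytes per sample was amplified in 2 labelling cycles from oligo(dT) primers and hybridised to an Affymetrix 3' expression array, per the labels' protocols. The deposited values are linear intensities made with MAS5, per the submitters' processing notes; the sources used here do not give its version or target level. Array levels differed (trimmed means of 194 to 332), so arrays were quantile normalized, and log2(value + 9) was taken, 9 being the 25th percentile of the deposited intensities. This scale understates changes of dim genes, and a change in total mRNA cannot be seen. A probe set was kept at or above the array median on at least 3 of 6 arrays, and each gene was represented by its kept set of highest mean. XY and XX were compared with limma 3.58.1 (lmFit, eBayes) in R 4.3.3, with Benjamini-Hochberg adjustment over 12442 genes at 0.05. With 3 arrays per group precision is limited, and p-values measure only the spread between these samples. In a pool of oocytes fewer cells and less RNA per cell cannot be told apart. Symbols came from the platform annotation, updated through RefSeq gene IDs (GRCm38.p6).

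Values are given per array for members past the test, the 8 with the highest signal, the smallest p of each role and X-linked members, and up to 5 genes of each list of Rab regulators; other genes were named after their values were seen. The members and lists were chosen with earlier results of these data known. Ratios of single pairs had an exact permutation test (two-sided). Alternatives changed the pseudocount, the scaling, the filter, the rule for several probe sets of a gene, the variance model or the threshold, weighted the arrays, added the Actb ratio or the replicate block, or left out each array. The steps were tested on simulated data.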

Additional observations from a re-analysis of the deposited data

How the results depend on the processing

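The 5 called members kept their direction under all alternatives run, but the counts of calls moved. The share of all genes called, 13.2% as reported, moved as well. It was 8.05% on the deposited values, 16.9% with median scaling and 16.2% with trimmed mean scaling. Pseudocounts of 1 and 32 gave 11.1% and 17.5%, no filter 5.02%, and the 70th percentile filter 25.8%, with 39 members tested. A trended variance gave 19.6%, array weights 26.2%, the Actb covariate 1.90% and the replicate block 5.46%. It was 24.3% at an adjusted p of 0.10 and 3.91% to 26.0% with an array left out. Members higher in XY, 1 as reported, numbered 3 with trimmed mean scaling or a trended variance, 0 with a pseudocount of 1 or the Actb covariate, 2 with a pseudocount of 32 or an adjusted p of 0.10, 4 with array weights, and 0 to 6 with an array left out. Members lower, 4 as reported, numbered 12 with median scaling, 2 with trimmed mean scaling or no filter, 7 with the 70th percentile filter, 8 with a trended variance or array weights, 0 with the Actb covariate, 10 at an adjusted p of 0.10, and 0 to 6 with an array left out. With the replicate number as a block, 0 members were higher and 2 lower (Rab33b and Rab3il1), and of the regulators 4 were higher and 3 lower. Same-numbered samples did not deviate together over the array (correlations of -0.10, 0.00 and -0.04). These values cannot tell whether such samples were collected or processed together, which was not tested. Regulators higher, 4 as reported, numbered 2 on the deposited values, with median scaling or the Actb covariate, 7 with trimmed mean scaling, 10 with a pseudocount of 32, the 70th percentile filter or a trended variance, 17 with array weights, 11 at an adjusted p of 0.10, and 3 to 15 with an array left out. Regulators lower, 11 as reported, numbered 17 with median scaling, 1 with the Actb covariate, and 2 to 15 with an array left out. Median scaling moved the median of all genes from 0.07 to -0.27, so its falls are relative to that shift. The number of all genes called lower went from 665 to 1622 with it.

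The sign under other settings was followed only for the genes named by the rules given with the processing. Among them it turned for 8 genes that were not called and for Appl1, called lower at -1.33. Other members turned as well: without XX 1, Rab10 gave -0.12 against 0.01 as reported, and Rab4a 0.11 against -0.02. On the deposited values Rab14 gave -0.22, Rab7 -0.21, Rab11a -0.12 and Rabif -0.087. With median scaling Rab14 gave -0.38, Rab38 -0.12, Rab7 -0.37, Rab5if -0.13, Rab11a -0.28, Rab1a -0.018 and Rabif -0.25. As a mean of probe sets Rab14 gave -0.057, Rab7 -0.021, Rab11a -0.42 and Appl1 0.077. With array weights Rab14 gave -0.026 and Rab21 0.029, and with the Actb covariate Rab38 gave -0.045. With an array left out Rab14 ran from -0.051 to 0.057 and Rab21 from -0.040 to 0.049. On the deposited values the ratio of Rab27a to Rab27b moved by -1.25, against -0.66 as reported. The ratios of Rab3b to Rab3c and Rab3c to Rab3d moved further there too. Rab3c met the filter only through its XY arrays, so no size is drawn from these 2 ratios. The cause of these shifts was not tested. Rab40b and Rab39b, with mean deposited intensities of 29.7 to 82.9, are the calls most limited by signal over background.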
